A study of Mus musculus with 8 samples.

Results

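Chromatin accessibility at the HOX cluster genes was examined in LSECs (liver sinusoidal endothelial cells), which line the hepatic sinusoids as a fenestrated layer. The members were all peaks of the ATAC-seq table whose annotated gene, the one with the nearest transcription start, bears a HOX name of cluster a, b, c or d. They numbered 30 of 58522 listed peaks and 19 of 17780 annotated genes. The rule used gene names and no measured value, but it was set with earlier results of these data known. All 30 passed the filter on low counts.

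ATAC-seq places sequencing adapters into open DNA with the Tn5 transposase, so that reads per peak measure how accessible a stretch of chromatin was. LSECs were taken from the livers of 12-week-old mice. Per the paper, cells isolated in this way also include endothelial cells of large liver vessels. Their purity by endothelial marker staining was lower in MafLSEC-KO than in controls. The MafLSEC-KO group carried the Clec4g-iCre transgene (tg/wt) on a Maf fl/fl background, so that Maf, which encodes the transcription factor c-Maf, was deleted in cells that use the Clec4g promoter. Controls were littermates without Cre that were Maf fl/fl or Maf fl/wt, so both groups carried floxed Maf and only the knockout group carried the transgene. Each group held 4 libraries, whereas the labels speak of 3 mice, and no source used here ties libraries to animals. The value of n therefore counts libraries. A p-value here reflects how libraries varied, and that variation may be technical.

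HOX genes encode homeodomain transcription factors that give cells their position along the body axis, and endothelial cells of different organs keep different HOX genes in use. Mammals hold them in the Hoxa, Hoxb, Hoxc and Hoxd clusters, where genes with the same number are paralogs. Low-numbered genes are used early and in anterior tissue, high-numbered genes late and in posterior tissue. Polycomb complexes keep unused parts of a cluster closed, Trithorax complexes keep used parts open, retinoic acid opens the low-numbered end, and PBX, MEIS and PKNOX proteins bind DNA together with HOX proteins.

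Depth differed between libraries, with 5367124 to 13364062 counts in peaks in controls and 6783573 to 11614365 in MafLSEC-KO. At the promoter peak of Maf the control libraries had 57 to 81.9 CPM (counts scaled to the size of the library) and the MafLSEC-KO libraries 8.36 to 18.4, so the targeted locus separated the groups as labelled. A deleted segment gives no reads whatever its accessibility, and no source used here gives the ends of the deleted part. Markers were read from counts summed over the peaks of each gene. Over all 17745 genes tested in this way, 4.05% fell and 5.65% rose. All 10 markers of sinusoidal endothelium had peaks. Of these, 4 fell in MafLSEC-KO, Dnase1l3, Fcgr2b and Stab2 among them, and 1 rose (Clec4g, the gene the Cre transgene was built from), with sums of 1253 to 1989 CPM in controls and 1410 to 1542 CPM in MafLSEC-KO. Among 5 measured markers of continuous endothelium (of 6), Cd34 and Aplnr rose, and the list's sum was 342 to 392 CPM in controls and 504 to 582 CPM in MafLSEC-KO. This shift of endothelial markers moved with the HOX results below, and its part in them was not tested. None of 8 pan-endothelial markers passed the test. CPM summed over the peaks of 5 of 8 stellate cell and fibroblast markers ran from 35 to 37.5 in controls and from 30.9 to 41.1 in MafLSEC-KO, and the stellate cell markers Lrat and Hand2 had no listed peak. Among hepatocyte (4 of 8 with a peak), macrophage (5 of 8), lymphocyte (2 of 8) and cholangiocyte markers (3 of 6), none passed the test in either direction. At the shares of all genes given above, the lack of a call in lists this short says little. In bulk cells, a smaller share of cells with an open site and a less open site in every cell cannot be told apart.

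The Hoxa cluster lies on chromosome 6 (mm10) in a window of 105.5 kb that holds 11 genes on the minus strand. The Hoxb cluster lies on chromosome 11 from 96194316 to 96368254, the Hoxc cluster on chromosome 15 from 102921131 to 103036856 and the Hoxd cluster on chromosome 2 from 74668225 to 74765142, all on the plus strand. Members were spread unevenly, with 9 peaks in Hoxa, 17 in Hoxb, 2 in Hoxc and 2 in Hoxd. The 17 Hoxb members included 4 peaks assigned to Hoxb1 that lay 34405 to 48066 bases beyond its start, outside the window.

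Short stretches of peak sequence are printed here because they hold the motif matches to which the results below refer. Each is read 5′ to 3′ on the strand given, from the RefSeq sequence of GRCm38.p6 (mm10), with the match in capitals. The first set shows the matches to a MAF motif (TGCTGAC), which is only a part of a full MAF recognition element. They lie in the Hoxb3 and Hoxc8 peaks that fell and in the Hoxb4 peak that did not. The Hoxb3 stretch (chr11:96339425-96339631, minus strand) lies in an intron, the Hoxc8 stretch (chr15:102987553-102987759, plus strand) is intergenic, and the Hoxb4 stretch (chr11:96319079-96319133, minus strand) is coding.
Hoxb3: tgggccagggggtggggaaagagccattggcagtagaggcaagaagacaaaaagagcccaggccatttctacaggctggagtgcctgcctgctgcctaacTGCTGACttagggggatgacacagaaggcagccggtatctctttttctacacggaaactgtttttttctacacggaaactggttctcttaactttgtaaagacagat
Hoxc8: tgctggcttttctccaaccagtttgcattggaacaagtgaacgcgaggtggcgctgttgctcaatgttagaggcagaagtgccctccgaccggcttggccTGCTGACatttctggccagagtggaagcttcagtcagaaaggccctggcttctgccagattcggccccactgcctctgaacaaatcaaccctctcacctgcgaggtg
Hoxb4: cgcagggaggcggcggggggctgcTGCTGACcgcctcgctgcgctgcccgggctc

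The second set shows matches to a HOX-PBX composite motif (TGATTNAT) in the start-proximal peaks of the paralogs Hoxa2 (chr6:52164509-52164564, plus strand) and Hoxb2 (chr11:96351891-96351946, minus strand), both in the first coding exon, and in a Hoxb1 peak (chr11:96407685-96407740, plus strand, intergenic). A last line gives the AP-1 match (TGANTCA) of the Hoxb1 peak with the steepest fall (chr11:96400126-96400180, plus strand, intergenic).
Hoxa2: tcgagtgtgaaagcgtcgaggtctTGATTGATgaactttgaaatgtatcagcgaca
Hoxb2: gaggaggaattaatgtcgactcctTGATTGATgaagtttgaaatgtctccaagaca
Hoxb1, HOX-PBX: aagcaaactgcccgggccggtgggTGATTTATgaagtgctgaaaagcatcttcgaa
Hoxb1, AP-1: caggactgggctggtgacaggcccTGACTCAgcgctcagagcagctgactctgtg
The Hoxa2 and Hoxb2 stretches were identical at 37 of 56 positions. The Hoxa2 peak held 3 such matches and each of the 2 Hoxb2 peaks held 1. The printed pair was the most alike, and the other pairs were identical at 15 to 24 positions.

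The third set shows matches to a CTCF core motif (12 positions, of which 8 are fixed), since CTCF marks boundaries within HOX clusters. Of the 5 members with a match, the intergenic peak between Hoxa7 and Hoxa9, which fell, is printed (chr6:52221785-52221844, minus strand). Beside it stands the intergenic Hoxd12 peak, which did not pass the test (chr2:74673154-74673213, minus strand). The matches at the starts of Hoxa10 and Hoxb6, which fell, and of Hoxb7, which did not pass, are not printed.
Hoxa7: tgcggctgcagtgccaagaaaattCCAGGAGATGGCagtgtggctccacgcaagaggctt
Hoxd12: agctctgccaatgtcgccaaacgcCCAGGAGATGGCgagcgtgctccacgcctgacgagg

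The first question was which parts of the clusters were open in LSECs. Open chromatin was concentrated in Hoxa and Hoxb, where listed peaks of any name covered 15.2% and 7.88% of the window, against 0.871% of Hoxc and 1.15% of Hoxd. A transcription start was taken as covered when a listed peak lay within 1000 bases of it, and only starts of curated RefSeq transcripts were used. Of 39 HOX genes in RefSeq, 14 had a covered start: 7 of 11 in Hoxa, 6 of 10 in Hoxb, 0 of 9 in Hoxc and 1 of 9 in Hoxd. Among paralog groups 1 to 8, 11 of 23 starts were covered, with 6 of 7 in Hoxa, 5 of 8 in Hoxb and none of the 4 in either Hoxc or Hoxd. Among groups 9 to 13, 3 of 16 were covered, namely those of Hoxa10, Hoxb9 and Hoxd9. With the starts of predicted RefSeq transcripts included, Hoxb3, Hoxb8 and Hoxc6 were covered too, which gave 8 of 10 genes in Hoxb and 1 of 9 in Hoxc, with no change in Hoxa, Hoxd or groups 9 to 13. Member peaks followed the same order, with 25 in groups 1 to 8 and 5 in groups 9 to 13. The table lists only peaks with a summed RPKM of at least 48.4, so a start without a listed peak may hold weaker signal.

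Levels are given as control CPM per kb of peak, since peaks were 184 to 2095 bases wide. The members ran from 7.21 to 28.7 CPM per kb with a median of 16.5, beside a median of 16.3 over all peaks tested. In Hoxa the highest member was the peak over the start of Hoxa5, a gene of lung and foregut patterning, with 28.7 CPM per kb, followed by the start of Hoxa10 with 27.7 and the peak upstream of Hoxa7 with 21.2. In Hoxb the highest members were the outermost Hoxb1 peak with 27, a peak upstream of Hoxb8 with 25.5 and an intronic Hoxb3 peak with 25.1. Both Hoxc members were assigned to Hoxc8, a gene of the thoracic skeleton, with 22.1 CPM per kb upstream of it and 15 at the far peak, which lies inside the span of Hoxc6. In Hoxd the peak upstream of Hoxd12 had 11.4 CPM per kb, and the start of Hoxd9 had the lowest level of all members, 7.21.

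Stronger signal in the Hoxa window carried other names. The peaks of Gm15050, a noncoding transcript opposite Hoxa3, had 45 and 44.6 CPM per kb, and no member reached these levels.

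Start-proximal members (13 peaks within 1000 bases of a start) had a median of 14.6 CPM per kb and a median width of 1444 bases. All 12095 start-proximal peaks of the series had 27.5 CPM per kb and 1101 bases, so the median HOX start was wider and lower than the median open start. The 17 other members had 19.4 CPM per kb and 483 bases, beside 14.9 and 480 over 46173 peaks. The sequence of the members was also richer in GC and CpG, with a median GC content of 55.3% against 49.1% and a CpG ratio (observed over expected) of 0.599 against 0.282. These are descriptions without a test.

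The second question was how accessibility at HOX genes differed between MafLSEC-KO and control LSECs. Of the 30 member peaks, 14 fell, 0 rose and 16 stayed short of the threshold (edgeR quasi-likelihood test, Benjamini-Hochberg adjusted p under 0.05 over all 58268 peaks tested). The share that fell was 46.7%, whereas 6.45% of all tested peaks fell and 8.97% rose. No member rose at an unadjusted p under 0.05 either, and 17 fell. The share of all tested peaks at that unadjusted cutoff was not counted, so these counts have no scale beside them. The log2 fold change, MafLSEC-KO over control, was below 0 at 27 of 30 members, with a median of -0.55 and a range from -1.37 to 0.36, beside a median of -0.00 over all tested peaks. At 12 of the 30 members every MafLSEC-KO library lay below every control library, beside 8.28% of all tested peaks, and 11 of these 12 were among the 14 that fell.

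By cluster, 4 of 9 Hoxa members, 8 of 17 Hoxb members and both Hoxc members fell, with median log2 fold changes of -0.43, -0.66 and -0.80. Neither Hoxd member passed the test (median 0.31). In the start-proximal group 5 of 13 members fell, beside 1.75% of all such peaks, and in the other group 9 of 17, beside 7.69%. By GC content, 8 of 11 members in the fourth quintile of all peaks fell, beside 5.25% of all peaks there. In the fifth, the richest, 3 of 12 members fell, beside 1.81% of all peaks there. The lower quintiles held 7 members, of which 3 fell, beside 7.80% to 8.94% of all peaks in each.

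**Figure D1:**
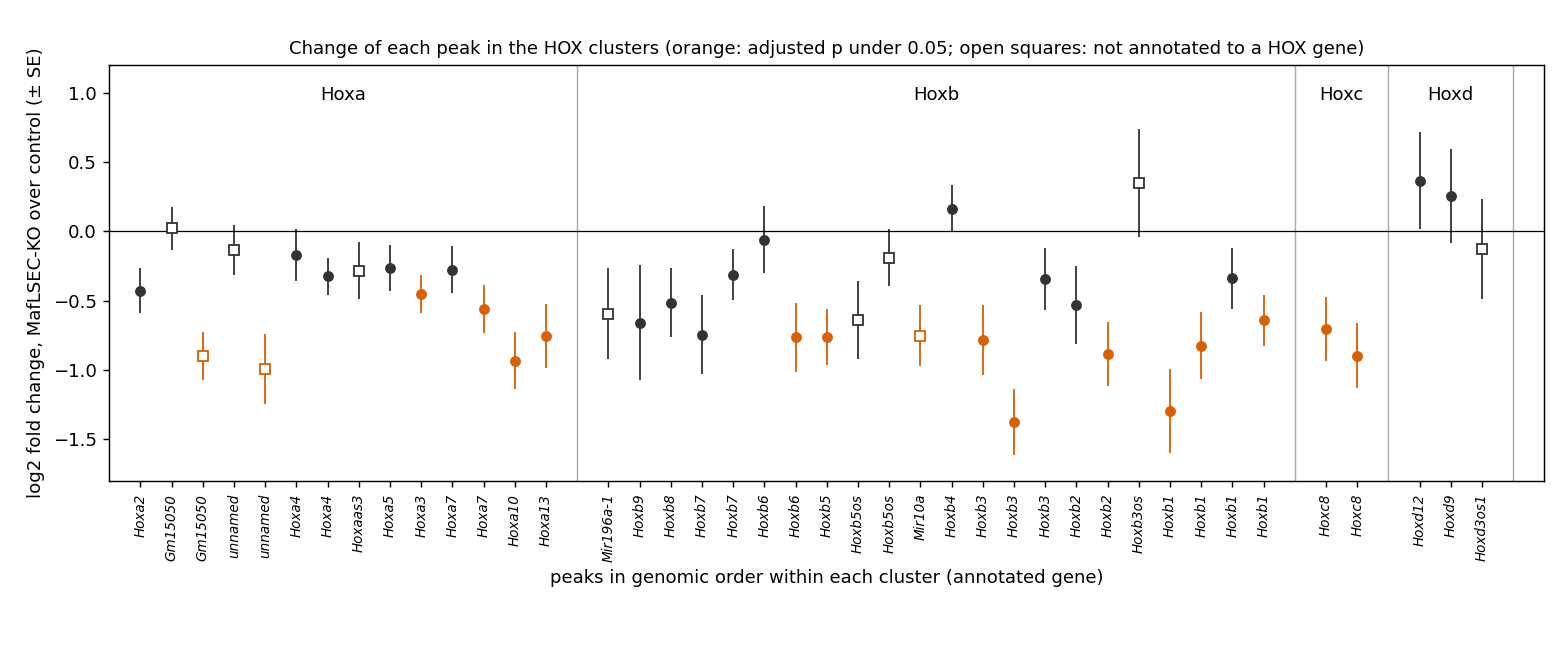
Log2 fold change of CPM, MafLSEC-KO over control (y axis), for listed peaks in the HOX clusters (Hoxa from Hoxa2 onward) in genomic order (x axis, annotated gene). Bars are a standard error derived from the edgeR F statistic (4 libraries a group). Circles are members, open squares are peaks with another name, and orange marks an adjusted p under 0.05. All 14 coloured circles lie below 0, and the 3 members above 0 (Hoxb4, Hoxd12, Hoxd9) are black.

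In the Hoxa cluster, gene numbers rise from left to right along the chromosome, up to Hoxa13, and the lowest log2 fold changes among members were at the high-numbered end. Hoxa10, which patterns the uterus and the posterior trunk, had its open start on chromosome 6 from 52240316 to 52240769, across the 5′ UTR. This peak had 15.8, 9.21, 11.7 and 13.6 CPM in control libraries 1 to 4 and 6.79, 7.47, 5.95 and 6.06 CPM in MafLSEC-KO libraries 1 to 4. Every knockout library lay below every control, and the log2 fold change stood at -0.93 (SE 0.204; edgeR adjusted p = 0.00372). It fell in every leave-one-out fit.

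Hoxa13, a gene of digits and the urogenital tract, had a peak 3623 bases past its start (52257011 to 52257504, intergenic) with 9.81, 8.46, 7.69 and 10.3 CPM in controls. MafLSEC-KO libraries had 3.98, 6.18, 3.97 and 7.17 CPM there, again without overlap (log2 fold change -0.75, SE 0.233, edgeR adjusted p = 0.0335). This Hoxa13 peak kept the call in 2 of 8 leave-one-out fits. The intergenic peak 3179 bases upstream of Hoxa7 (52221414 to 52222091), which holds the CTCF core match printed above, had 15.3, 14.3, 14 and 13.8 CPM in controls and 9.59, 8.02, 10.8 and 10.4 CPM in MafLSEC-KO. Controls were even, and all 4 knockout libraries were lower (log2 fold change -0.56, SE 0.171, edgeR adjusted p = 0.0312). This Hoxa7 peak kept the call in 4 of 8 leave-one-out fits.

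Hoxa3, needed for the thymus and parathyroid and known to drive endothelial migration, had a peak across its start and an exon of a noncoding transcript (52211491 to 52213420). Counts were even within groups, at 25.1, 24.4, 25.9 and 25.8 CPM in controls and 19.6, 16.6, 20 and 17.9 CPM in MafLSEC-KO. The groups did not overlap, and the fall was small (log2 fold change -0.45, SE 0.139, edgeR adjusted p = 0.0332). It kept the call in 2 of 8 leave-one-out fits.

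The broad peak at the start of Hoxa5 (52202840 to 52204768) did not pass the test. It had 43.4, 61.7, 45.8 and 70.6 CPM in controls and 42.1, 49.9, 35.5 and 57.6 CPM in MafLSEC-KO. The groups overlapped (log2 fold change -0.27, SE 0.165, edgeR adjusted p = 0.309). At the start of Hoxa2, a gene of hindbrain and branchial arch identity (52163865 to 52165309), controls had 19.8, 25.4, 17.1 and 24.1 CPM and MafLSEC-KO 16.4, 16.3, 13.7 and 18.3 CPM. Here too the groups overlapped (log2 fold change -0.43, SE 0.165, edgeR adjusted p = 0.0903). The start of Hoxa4 (52190463 to 52192364) had 27.6, 25.4, 27.9 and 30.3 CPM in controls and 21, 22, 21.3 and 24.6 CPM in MafLSEC-KO. It was the only member without overlap between the groups that did not pass the test (log2 fold change -0.32, SE 0.136, edgeR adjusted p = 0.119). The other 2 Hoxa members, a peak named for Hoxa4 within an intron of Hoxa3 and the start of Hoxa7, had log2 fold changes of -0.17 and -0.28. Neither passed. Raw counts behind the Hoxa members were 44 to 937 per control library and 27 to 675 per MafLSEC-KO library.

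In the Hoxb cluster, the low-numbered end held the steepest falls. An intronic Hoxb3 peak, 4316 bases upstream of the nearest curated Hoxb3 start (chromosome 11, 96339240 to 96339667), had 6.90, 10.4, 8.91 and 13.6 CPM in controls and 3.98, 3.32, 4.07 and 4.27 CPM in MafLSEC-KO. The raw counts were 38, 84, 51 and 181 in controls and 27, 36, 39 and 50 in MafLSEC-KO. All knockout libraries lay below all controls, and the log2 fold change was the lowest of the 30 at -1.37 (SE 0.237, edgeR adjusted p = 0.000524). This is the peak with the MAF motif printed above.

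A second intronic Hoxb3 peak (96324295 to 96324607) had 6.54, 6.22, 6.46 and 12.0 CPM in controls and 4.43, 5.53, 3.87 and 4.69 CPM in MafLSEC-KO. The groups did not overlap, but control 4 stood apart from the other controls (log2 fold change -0.78, SE 0.254, edgeR adjusted p = 0.0430; -0.46 and adjusted p = 0.212 without control 4). The remaining Hoxb3 peak did not pass the test (log2 fold change -0.34).

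Hoxb2, which acts in the hindbrain downstream of Hoxb1, had its open start on the first exon (96351452 to 96352653), with 14.7, 14.7, 11.7 and 22.0 CPM in controls and 5.61, 9.13, 7.52 and 11.9 CPM in MafLSEC-KO. Control 3 and knockout 4 overlapped narrowly, and the peak fell (log2 fold change -0.89, SE 0.230, edgeR adjusted p = 0.0124). It holds the HOX-PBX match that lines up with the Hoxa2 match printed above, and the start of Hoxa2 did not pass the test. The other Hoxb2 peak, 3304 bases upstream, had a log2 fold change of -0.53 and did not pass.

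Hoxb1, the hindbrain gene at the end of the cluster, had no listed peak at its start, and 4 intergenic peaks lay beyond it. At the nearest of them, 34405 bases from the start (96399966 to 96400360), controls had 8.54, 5.97, 4.54 and 12.0 CPM and MafLSEC-KO 2.51, 2.4, 3.55 and 4.27 CPM. No knockout library reached a control (log2 fold change -1.30, SE 0.301, edgeR adjusted p = 0.00567). The peak at 42123 bases (96407658 to 96408104) had 5.81, 7.84, 6.64 and 11.2 CPM in controls and 4.43, 4.70, 3.87 and 5.12 CPM in MafLSEC-KO. It fell as well (log2 fold change -0.82, SE 0.241, edgeR adjusted p = 0.0251; -0.59 and adjusted p = 0.107 without control 4). The outermost peak at 48066 bases (96413359 to 96414290) had 18.9, 24.9, 21 and 35.9 CPM in controls and 15.2, 16.6, 14.9 and 18.5 CPM in MafLSEC-KO, and fell too (log2 fold change -0.64, SE 0.185, edgeR adjusted p = 0.0232; -0.41 and adjusted p = 0.0782 without control 4). Control 4 was the highest library at both. Between them, the peak at 45323 bases did not pass (log2 fold change -0.34). Nearest start was the only link of these peaks to Hoxb1.

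Hoxb5 and Hoxb6, genes of the middle of the cluster, each had an open first exon. The Hoxb5 peak (96303001 to 96305096) had 27.6, 31.2, 26.6 and 45 CPM in controls and 14.9, 20.1, 14.8 and 27.4 CPM in MafLSEC-KO. Only knockout 4 reached the range of the controls (log2 fold change -0.76, SE 0.203, edgeR adjusted p = 0.0147). The Hoxb6 peak (96298991 to 96299449) had 7.08, 11.1, 7.86 and 16.5 CPM in controls and 5.16, 6.73, 6.16 and 7.42 CPM in MafLSEC-KO. Knockout 4 again overlapped the lowest control (log2 fold change -0.76, SE 0.248, edgeR adjusted p = 0.0429; -0.45 and adjusted p = 0.183 without control 4).

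Among the Hoxb members that did not pass, the one upstream of Hoxb7 within the last exon of Hoxb8 (96284193 to 96284676) came closest. It had 6.72, 11.9, 6.11 and 12.7 CPM in controls and 6.05, 7.01, 2.92 and 6.83 CPM in MafLSEC-KO, and the groups overlapped (log2 fold change -0.75, SE 0.284, edgeR adjusted p = 0.0862). The peak upstream of Hoxb8 (96278750 to 96279029) had 5.27, 7.34, 5.94 and 9.86 CPM in controls and 5.31, 4.15, 4.28 and 6.57 CPM in MafLSEC-KO. It overlapped too (log2 fold change -0.51, SE 0.249, edgeR adjusted p = 0.184). The start of Hoxb7, the second Hoxb6 peak and the Hoxb9 peak had log2 fold changes of -0.31, -0.06 and -0.66. The Hoxb9 peak was thin, with 9 to 44 raw counts in controls and 8 to 25 in MafLSEC-KO.

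Hoxb4, known for the expansion of blood stem cells, was the exception within Hoxb and is described here because its values were seen. Its open first exon (96318269 to 96319895) had 24.3, 27.1, 19.2 and 34.2 CPM in controls and 28.9, 32.1, 23.5 and 34.0 CPM in MafLSEC-KO. The groups overlapped and the peak did not pass the test (log2 fold change 0.16, SE 0.170, edgeR adjusted p = 0.579), with values from -0.07 to 0.32 under the other settings. Raw counts at Hoxb4 were 134, 218, 110 and 454 in controls and 196, 348, 225 and 399 in MafLSEC-KO, and those at the neighbouring Hoxb5 were 152, 251, 152 and 598 and then 101, 218, 142 and 321. The ratio of Hoxb4 to Hoxb5 counts within a library, which does not depend on depth, was 0.882, 0.869, 0.724 and 0.759 in controls and 1.94, 1.60, 1.58 and 1.24 in MafLSEC-KO. The pair was picked after its values were seen, so this is a description without a test.

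Both Hoxc8 peaks fell. The far peak, 8870 bases past the start (chromosome 15, 102999104 to 102999715), had 9.08, 8.83, 7.51 and 11.2 CPM in controls and 4.72, 5.44, 3.24 and 6.31 CPM in MafLSEC-KO. All 4 knockout libraries were lower than all controls (log2 fold change -0.90, SE 0.234, edgeR adjusted p = 0.0127). The upstream peak (102987388 to 102987785) also holds a MAF motif. It had 6.54, 7.21, 12.6 and 8.81 CPM in controls and 5.16, 6.18, 5.01 and 5.12 CPM in MafLSEC-KO. Control 3 was high, and the fall was near the threshold (log2 fold change -0.70, SE 0.232, edgeR adjusted p = 0.0462; -0.51 and adjusted p = 0.148 without control 3).

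Hoxd members were thin and showed no fall. Raw counts at the peak 1922 bases upstream of Hoxd12, a digit gene (chromosome 2, 74672977 to 74673206), were 9, 21, 25 and 24 in controls and 22, 40, 22 and 45 in MafLSEC-KO, or 1.63, 2.61, 4.37 and 1.81 CPM and then 3.25, 3.69, 2.3 and 3.84 CPM. At the start of Hoxd9, a limb and lumbar gene (74697702 to 74698273), they were 28, 18, 36 and 38 in controls and 43, 33, 58 and 44 in MafLSEC-KO, or 5.09, 2.24, 6.29 and 2.86 CPM and then 6.34, 3.04, 6.06 and 3.75 CPM. The groups overlapped at both. The log2 fold changes were 0.36 (SE 0.350, edgeR adjusted p = 0.543) and 0.25 (SE 0.338, edgeR adjusted p = 0.675), with standard errors above those of any Hoxa or Hoxc member.

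**Figure D2:**
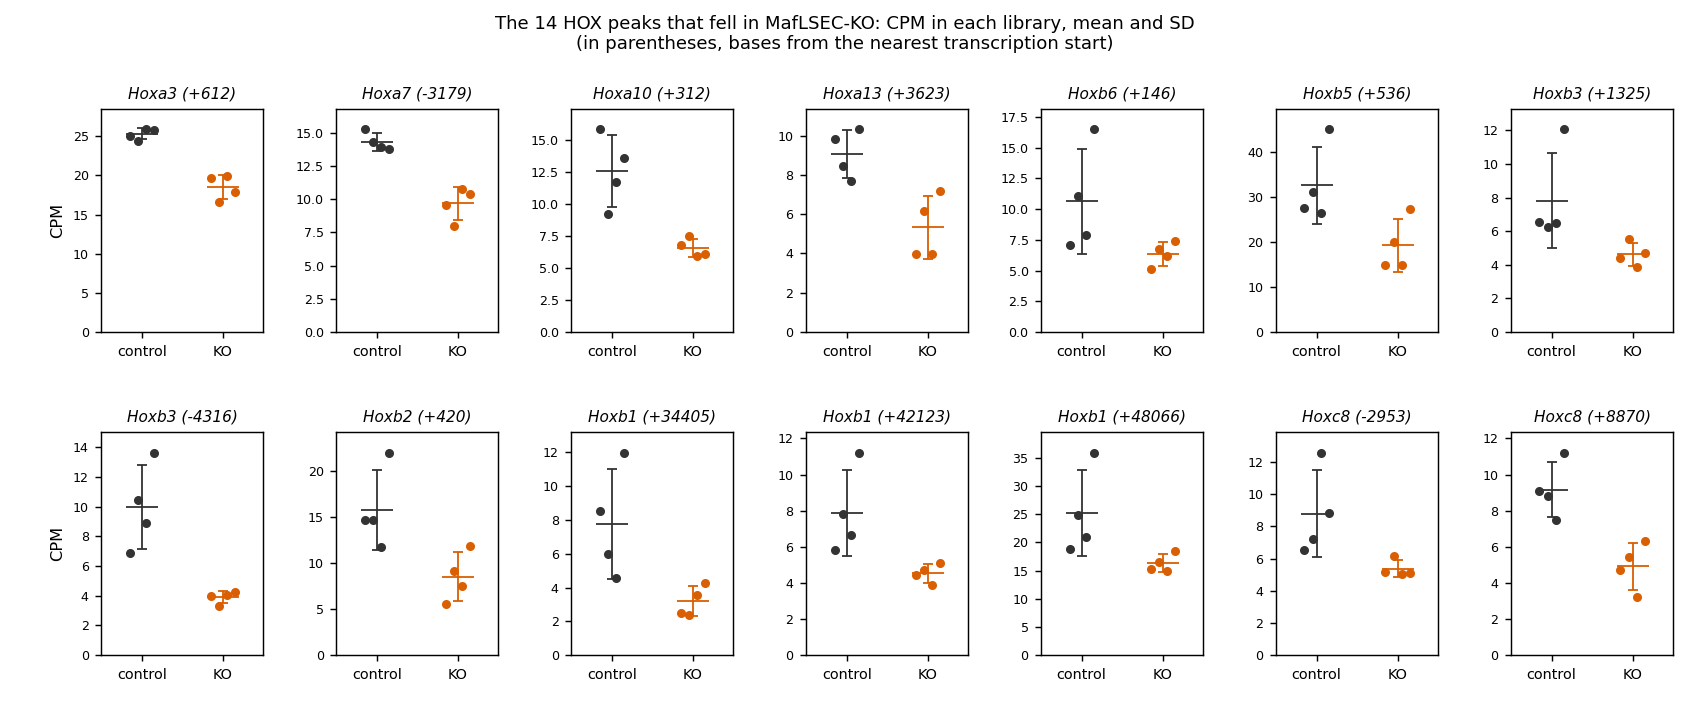
CPM in each library (y axis, starting at 0) at the 14 member peaks that fell, for 4 control and 4 MafLSEC-KO libraries (points, in replicate order), with mean (long bar) and SD (whiskers). The number behind each gene is the distance in bases to the nearest transcription start. The groups overlap only at the Hoxb6, Hoxb5 and Hoxb2 peaks.

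Summed over its members, Hoxa went from 191 ± 19.3 to 147 ± 13.4 CPM (control to MafLSEC-KO, SD, n = 4 libraries a group), a ratio of 0.766. The Hoxb sum was 225 ± 57.5 and 159 ± 29.2 CPM, a ratio of 0.707, and the Hoxc sum 17.9 ± 2.45 and 10.3 ± 1.57 CPM, a ratio of 0.574. Hoxd had 6.72 ± 2.78 and 8.07 ± 1.21 CPM, a ratio of 1.2 within the spread of the controls. Hoxa and Hoxc sums did not overlap between groups, and those of Hoxb and Hoxd did.

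Control 4, the deepest library, was the highest control at 22 of 30 members, among them 17 of 17 in Hoxb and 4 of 9 in Hoxa, beside 30.5% of all tested peaks. Without it the Hoxb ratio was 0.805 and the Hoxa ratio 0.801. Its part in the Hoxb fall beyond these values was not tested.

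**Figure D3:**
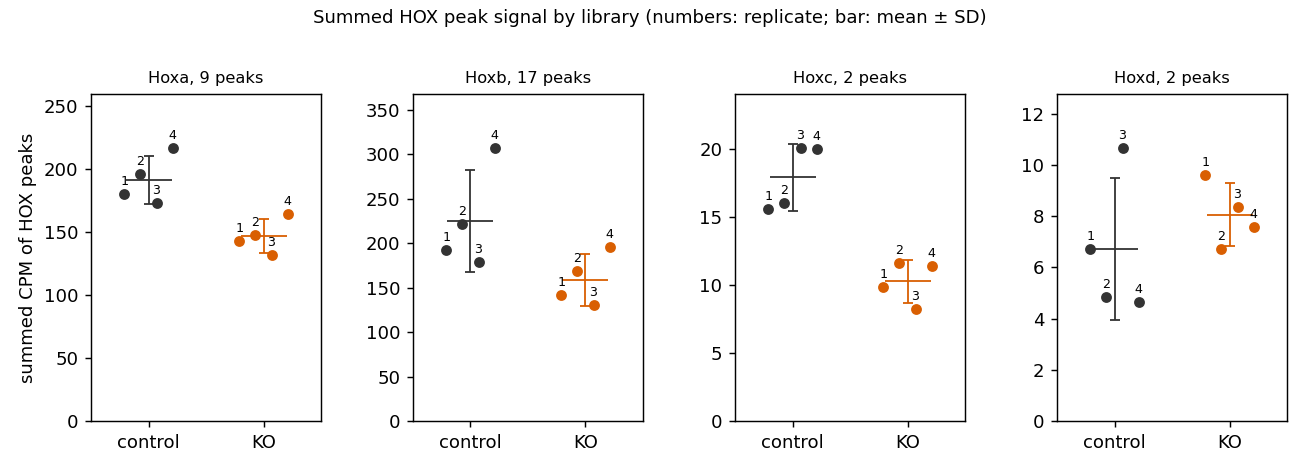
CPM summed over the member peaks of each cluster (y axis, starting at 0) in each library (points, with the replicate number) for control and MafLSEC-KO, with mean and SD. In Hoxb control 4 stands at 307 CPM above the other controls (179 to 222), and in Hoxa and Hoxc all 4 knockout libraries lie below all controls.

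The count of falls moved with single libraries. Without control 2 it was 7, without control 4 it was 8, without MafLSEC-KO 1 it was 5, without MafLSEC-KO 2 it was 6 and without MafLSEC-KO 3 it was 5, while the shares of all peaks that fell were 4.49%, 8.09%, 4.96%, 4.26% and 4.58%. The start of Hoxa10, the upstream Hoxb3 peak, the start of Hoxb2 and the Hoxb1 peak at 34405 bases fell in all 17 other settings. The other 10 each lost the call in at least 1 leave-one-out fit. Of the 8 such fits, the upstream Hoxc8 peak kept the call in 1, and the Hoxa3, Hoxa13 and Hoxb6 peaks in 2. The Hoxb1 peaks at 42123 and 48066 bases and the second intronic Hoxb3 peak kept it in 3. The upstream Hoxa7 peak kept it in 4, the Hoxb5 peak in 6 and the far Hoxc8 peak in 7. The direction moved less, with 26 of 30 members below 0 in all 17 other settings.

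When counts were summed over the peaks of each gene, 8 of 19 HOX genes fell, 0 rose and 11 stayed short of the threshold, beside 4.05% of 17745 tested genes that fell and 5.65% that rose. At an unadjusted p under 0.05, 12 fell and 0 rose, and the share of all genes at that cutoff was not counted. Every MafLSEC-KO library lay below every control at 8 of the 19 genes, beside 7.18% of all genes, and 6 of these were among those that fell. The sums of Hoxc8 (18.1 ± 2.67 and 10.2 ± 1.56 CPM, log2 fold change -0.83, edgeR adjusted p = 0.00862) and Hoxa10 (12.7 ± 2.97 and 6.51 ± 0.666 CPM, -0.96, adjusted p = 0.0106) fell in all 8 leave-one-out fits. Hoxb1 (-0.72), Hoxb2 (-0.79), Hoxa3 (-0.48), Hoxb5 (-0.79), Hoxb3 (-0.69) and Hoxa7 (-0.44) also fell, with adjusted p from 0.0201 to 0.0486. These lost the call in some of those fits, and Hoxa7 in all 8. The count was 3 without control 2 and 2 without MafLSEC-KO 1, 2 or 3.

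Peaks inside the cluster windows that bear other names were read in the same fit. Of 13 such peaks 3 fell and 0 rose, beside 6.45% of all tested peaks that fell and 8.97% that rose. The promoter of Gm15050 opposite Hoxa3 went from 26.3 ± 3.49 to 14.2 ± 2.94 CPM (log2 fold change -0.90, edgeR adjusted p = 0.00132), and a noncoding exon without a gene name in Hoxa (52177206 to 52177523) had 5.48 ± 0.693 and 2.74 ± 0.168 CPM (-0.99, adjusted p = 0.0107). The peak near Mir10a, a microRNA gene between Hoxb4 and Hoxb5, had 16.8 ± 4.49 and 10 ± 2.8 CPM (-0.75, adjusted p = 0.0232). The other Gm15050 peak, 1953 bases upstream, did not pass the test, with 45.5 ± 11.7 and 46.5 ± 4.08 CPM (log2 fold change 0.02).

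Flanks of 200 kb on each side were read too, a distance chosen after the results were seen. Over all tested peaks 6.45% fell and 8.97% rose, so flanks with this few peaks could hold few or no calls. Beside Hoxa 1 of 8 peaks fell (named for Halr1, a noncoding RNA). None of 5 beside Hoxb (distant Hoxb1 members not counted) and none of 13 beside Hoxc passed the test. Beside Hoxd 2 of 7 rose, both named for Mtx2, a mitochondrial gene. The median log2 fold change of the flank peaks was -0.25 beside Hoxa, -0.57 beside Hoxb, -0.03 beside Hoxc and 0.39 beside Hoxd.

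Proteins that act with or on HOX genes were read from the gene sums, of which 4.05% fell and 5.65% rose over all tested genes. Among the HOX cofactors of the TALE class (PBX, MEIS and PKNOX) 9 of 9 had peaks, and only Pknox2 rose, from 141 ± 18.4 to 181 ± 14 CPM (log2 fold change 0.36, SE 0.104, edgeR adjusted p = 0.0414). None of 21 measured Polycomb genes and none of 8 measured Trithorax or H3K27 demethylase genes passed the test. In the retinoic acid list (10 of 14 measured) only Rarb, a retinoic acid receptor that is itself induced by retinoic acid, passed. It fell from 315 ± 14.2 to 172 ± 6.07 CPM (log2 fold change -0.87, SE 0.0733, edgeR adjusted p = 1.92e-05), with all knockout libraries below all controls. Evx and ParaHox genes, the cluster neighbours and relatives of HOX genes, had peaks at 3 of 8, and none passed.

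Motif matches were counted on both strands of every peak. The MAF motif was present in 3 of 30 members (10% against 12.0% of all peaks), 2 of which fell. AP-1 was present in 6 (20% against 21.2%), 3 of which fell. The AP-1 letters can overlap the end of a MAF motif. The HOX-PBX motif was present in 6 members (20%) beside 7.36% of all peaks and 8.5% of peaks between 447.75 and 1409 bases wide, the middle range of member widths. Only 2 of these 6 fell. CTCF core matches were present in 5 (16.7% against 13.4%), 3 of which fell. A match is a description of letters and not a bound site.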

How the data were processed

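ATAC-seq libraries of LSECs (4 control, 4 MafLSEC-KO) were analysed from 1 deposited table. Per the methods and labels, the authors used Bowtie2 on trimmed reads (build mm10), Picard against duplicates and MACS2 for peaks. Blacklisted regions were left out, control and knockout peaks were joined with bedtools 2.30.0, which also gave the counts, and HOMER 4.11 named the nearest gene. A shift of read ends for Tn5 is not given in the sources used here. The deposited table holds raw counts per library, which were used, and the authors' size-factor normalized signal, their RPKM, the distance to the nearest start, and the log2 fold change, test score and p-value of their own comparison. The authors' comparison columns were not used. The table lists 58522 peaks, and 68 peaks without a gene name (0.0775% of counts) entered only the fit of peaks.

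Counts were fitted with edgeR 4.0.16 in R 4.3.3 (TMM, filterByExpr, quasi-likelihood test, group as the only term, two-sided, Benjamini-Hochberg over all 58268 peaks or 17745 gene sums). The steps were tested on simulated data. CPM follow TMM scaling, and values are mean ± SD. SE is the absolute log2 fold change divided by the square root of the F statistic of the quasi-likelihood test. Alternatives were RLE factors, library totals, no filter, DESeq2 1.42.0, log2 total as covariate, replicate block, offsets from 20 GC bins, and leaving out each library. Named peaks were the 12 falls with the smallest p, the 3 highest members per cluster by CPM per kb, and the 3 with the smallest p that did not pass; pathway genes were up to 4 past the threshold per list. Values at 1 locus are not reported here. Members and lists were chosen with earlier results of these data known.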

Additional observations from a re-analysis of the deposited data

Results flagged for a closer look

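In each group of 4 libraries, a library whose gap to its nearest neighbour exceeded Dixon's 95% critical share of the group's range was picked out. Over 68 groups (30 member peaks and 4 cluster sums in each genotype) this picked 3, and chance picks about 1 in 20 groups. At the start of Hoxb7, control 3 was low with 16.1 CPM, beside 23.6 to 24.5 CPM in the other controls. At the intronic Hoxb3 peak from 96324295 to 96324607, control 4 was high with 12.0 CPM, beside 6.22 to 6.54 CPM. At the upstream Hoxc8 peak, MafLSEC-KO 2 was high with 6.18 CPM, beside 5.01 to 5.16 CPM, and still below every control.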

How the results depend on the processing

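The count of member peaks that fell (14) was 14 under RLE factors, library totals, no filter, DESeq2 and GC offsets, and 5 to 14 with 1 library left out. With log2 total as a covariate it was 21, while the share of all peaks that fell went from 6.45% to 11.3%. The count of members that rose was 0 under every alternative run. HOX gene sums that fell (8) were 15 with the covariate (11.1% of all gene sums, beside 4.05%) and 2 to 7 with 1 library left out. Peaks of any name in the cluster windows that fell (14) were 25 with the covariate and 6 to 15 with 1 library left out, and pathway genes past the threshold (2) were 9 and 1 to 6. Leaving out controls 1 and 3 together, the shallowest libraries, was added after seeing the data and gave 18 members, 10 gene sums, 22 window peaks and 8 pathway genes, with 9.56% of all peaks and 7.26% of all gene sums falling. The cause of these shifts was not tested.

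The replicate numbers were not taken as pairs, since the correlations of deviations between same-numbered libraries (0.191, 0.0967, 0.257 and 0.442) were not all above 0.1. As a hint from the data, 3 of 4 MafLSEC-KO and 3 of 4 control libraries correlated best with their own number. Some unlike numbers also correlated, with 0.212 for control 1 and MafLSEC-KO 3 and 0.154 for control 3 and MafLSEC-KO 1. The value was 0.150 for control 4 and MafLSEC-KO 2, while other pairs lay below 0, such as control 4 and MafLSEC-KO 3 (-0.323). Whether these values follow depth was not tested. With the replicate block the counts were 17 members, 14 gene sums, 18 window peaks and 8 pathway genes, while 10.7% of all peaks and 10.8% of all gene sums fell. The block with GC offsets gave 18 members and 11.5% of all peaks. Over 21 named peaks and 17 settings, 289 of 357 values kept direction and side of the threshold, 49 lost the call (47 of them with 1 library left out), 19 gained it and 0 turned direction. The median log2 fold change of the members ran from -0.66 to -0.43. Depth limits Hoxd and Hoxb9, whose peaks had as few as 8 counts in a library.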
